A study of Mus musculus with 6 samples.

Results

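The mitochondrial respiratory chain is built from 2 genomes, and this report follows the genes for its subunits in cultured mouse retinal ganglion cells (RGCs), the neurons that send the optic nerve to the brain. Members were chosen by symbol. They were the genes whose names begin with mt-Nd, mt-Co, mt-Cyt or mt-Atp, the numbered Ndufa, Ndufb, Ndufc, Ndufs and Ndufv genes, the Uqcr genes, Sdha to Sdhd, and the Cox genes numbered 4 to 8 with a letter a, b or c. This gave 78 of 43346 Ensembl mouse genes, 13 on mitochondrial DNA (mtDNA) and 65 in the nucleus. Of the nuclear members, 35 belong to complex I, 4 to complex II, 8 to complex III and 18 to complex IV, while the mtDNA members give 7 subunits of complex I, 1 of complex III, 3 of complex IV and 2 of the ATP synthase, complex V. The pattern leaves out Cox4i1 and the nuclear ATP synthase genes, which were followed as separate lists.

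RGCs were purified with CD90.1 by immunopanning and received an adeno-associated virus (AAV2) that carried GFP alone (control), Sox11 with GFP, or Sox11 K91A with GFP, in which lysine 91 of Sox11, a site of SUMO attachment, is exchanged for alanine. The 3 groups had 2 replicates each, 6 libraries in all. AAV was added 4 h after plating and RNA was taken 72 h after plating. All 3 groups were kept in the same medium with forskolin, BDNF and CNTF and all received a virus, so no library is from cells without AAV. The age of the cells is given as embryonic day 18 in the sequencing protocol, postnatal day 2 in the growth protocol and postnatal day 0 in the names of the tables, and the sources used here do not settle it. The wells were plated in sets of 4, and sequencing is described as duplicates of 3 RNA samples. These words do not settle whether the 2 libraries of a group share 1 RNA. The 2 control libraries, and the 2 Sox11 libraries, differed in *Xist* and Y-linked genes, as given below. No source gives them as separate cultures, and the p-values measure only the spread between these libraries.

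Electrons from NADH enter the chain at complex I and those from succinate at complex II. They pass through complex III to complex IV, which reduces oxygen, and the protons pumped on the way drive complex V. Complexes I, III and IV join mtDNA-encoded core subunits to nuclear-encoded ones made in the cytosol, complex II is wholly nuclear, and RGCs, with long unmyelinated axon segments in the retina, are known for a high demand on this chain. The mtDNA is transcribed from both strands as long precursors that are cut at tRNAs into separate RNAs.

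The libraries held between 27521981 and 37061718 expected counts. *Sox11*, whose reads may come from the virus as well as the cell, was at 234 and 332 counts-per-million (CPM, scaled for library composition) in the control libraries, 9178 and 14591 with Sox11, and 11971 and 7026 with Sox11 K91A, a log2 fold change against control of 5.38 (adjusted p = 0.008) and 5.04 (adjusted p = 0.009). All 12 RGC markers had a mean of at least 1 CPM in each group, *Gfap*, the astrocyte filament gene, was at 0, and the 9 photoreceptor markers together reached at most 4.20 CPM in a library. Markers of other retinal cells were present. The 11 Muller glia, astrocyte and progenitor markers, *Gfap* among them, summed to 238 to 503 CPM in a library. The 9 amacrine and horizontal cell markers summed to 78.6 to 477 CPM. Control replicate 2 and Sox11 replicate 2 stood apart from the other libraries, with *Xist* at 95.9 and 254 CPM against 400 to 526 CPM, and with 4 Y-linked genes together at 78.2 and 99.5 CPM against 39.1 to 47.7 CPM. Results that rest on these libraries are given below with and without them.

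Most members of the 2 genomes had values of opposite sign. Of the 60 nuclear members tested, 59 had a log2 fold change below 0 against control with Sox11 and 59 with Sox11 K91A, where 49.5% and 48.7% of all genes did, while 12 and 13 of the 13 mtDNA members were above 0. The 12 include *mt-Nd1*, whose value with Sox11 was 0.00. A gene was called changed when the adjusted p from limma-voom (Benjamini-Hochberg, 15747 genes tested) was under 0.05 and the fold change was above 1.2 in either direction. With Sox11, 24 of the 60 nuclear members fell and 0 rose, against 10.2% of all genes called lower and 9.96% called higher. With Sox11 K91A, 7 of 60 fell and 0 rose, against 4.81% and 5.81% of all genes. Of the 13 mtDNA members, 0 were called with either virus by limma-voom, where 20.1% of all genes were called with Sox11 and 10.6% with Sox11 K91A. At an unadjusted p under 0.05 there were 4 of 13 with Sox11 and 2 of 13 with Sox11 K91A, all higher, a smaller share than the 38.0% and 30.6% of all genes. DESeq2 called 3 and 2 mtDNA members higher, where it called 13.5% and 9.85% of all genes higher, and 36 and 27 nuclear members lower, where it called 14.1% and 10.1% of all genes lower. In 47 nuclear members with Sox11 and 48 with Sox11 K91A, both libraries of the virus lay below both control libraries, as was so for 30.6% and 30.7% of all genes.

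The median log2 fold change of the nuclear members was -0.58 with Sox11, a median decrease of 33.0%, and -0.50 with Sox11 K91A. That of the mtDNA members was 0.43 and 0.35, and that of all genes tested was 0.01 and 0.02. The difference of the medians, mtDNA minus nuclear, was therefore 1.01 on the log2 scale with Sox11 and 0.84 with Sox11 K91A. These values describe the lists and carry no test of their own. Both comparisons use the same 2 control libraries.

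**Figure D1:**
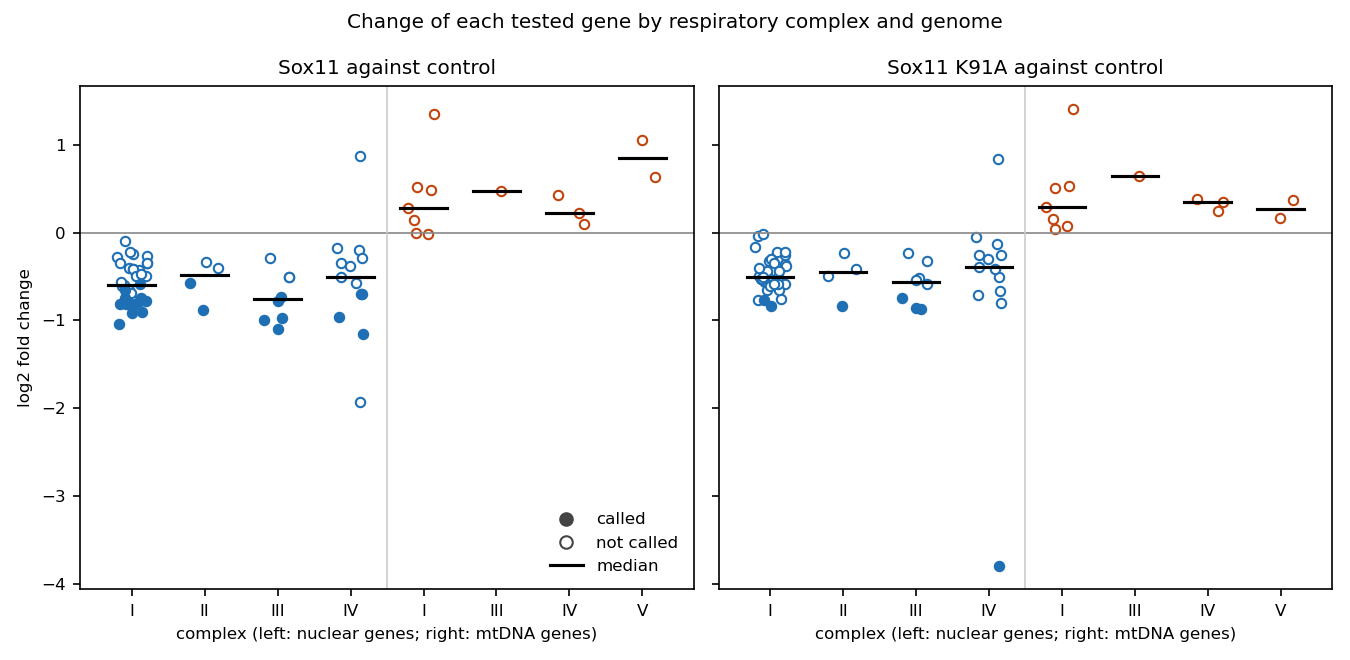
Log2 fold change of each tested member (vertical axis) by respiratory complex, nuclear genes on the left and mtDNA genes on the right of each panel, for Sox11 and Sox11 K91A against control. Filled points were called, open points were not, and black bars are medians. All filled points are nuclear and below 0, and 59 of the 60 nuclear points lie below 0 in each panel.

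Summed over members, the 13 mtDNA genes took 2.03% and 2.18% of all counts in the control libraries, 2.39% and 2.69% with Sox11, and 2.65% and 2.54% with Sox11 K91A. The 65 nuclear genes took 0.562% and 0.741% in control, 0.455% and 0.396% with Sox11, and 0.445% and 0.478% with Sox11 K91A. Neither sum overlapped between control and either virus. There were 3.28 ± 0.473 mtDNA counts per nuclear count in control (SD, n = 2), 6.02 ± 1.10 with Sox11 and 5.64 ± 0.456 with Sox11 K91A. With 2 libraries against 2, no exact permutation test of such a sum could pass a threshold, so none was run. The share of RGCs in a culture was not measured, and in bulk RNA fewer cells of a type and less RNA per cell cannot be told apart.

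**Figure D2:**
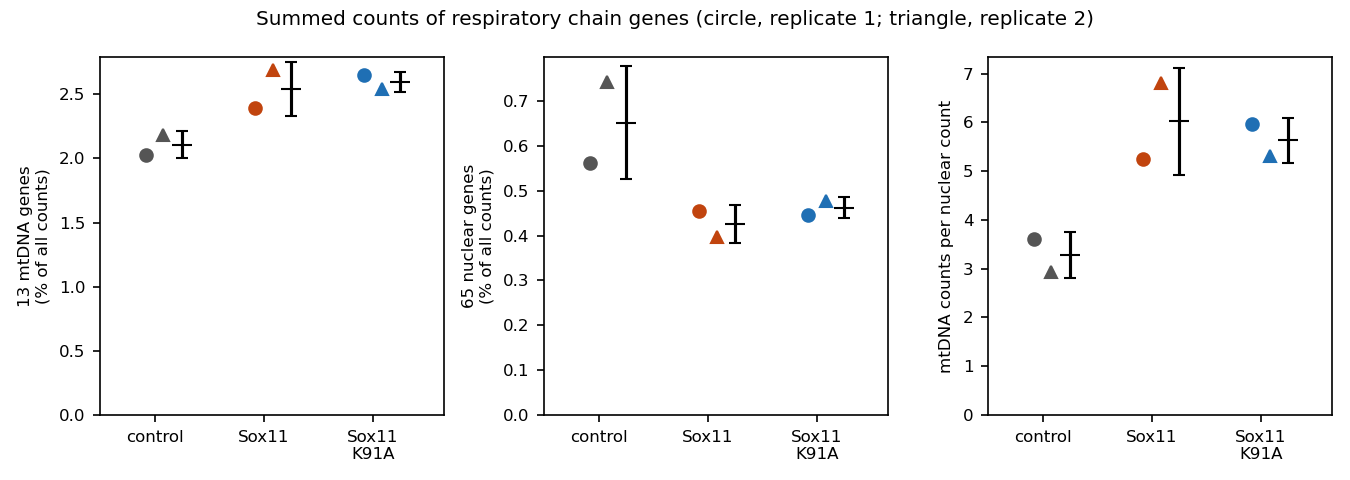
Summed expected counts of the mtDNA members and of the nuclear members as a percent of all counts, and the ratio of the sums. Colored points are libraries, and the black bar is the mean with SD over 2 replicates. The nuclear sums of control lie above those of both viruses, and the ratio is 2.94 to 3.61 in control and 5.24 to 6.80 in the other libraries.

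Complex I is the entry point for NADH, with a hydrophilic arm that carries the iron-sulfur clusters and a membrane arm that pumps protons. All 35 of its nuclear members were tested, and 14 fell with Sox11, which were *Ndufa2*, *Ndufa3*, *Ndufa8*, *Ndufa11*, *Ndufa12*, *Ndufa13*, *Ndufb2*, *Ndufb8*, *Ndufb9*, *Ndufb10*, *Ndufb11*, *Ndufs7*, *Ndufs8* and *Ndufv3*. The median log2 fold change of the 35 was -0.60. *Ndufs8* encodes a core subunit with iron-sulfur clusters on the way to ubiquinone. It was at 40.2 and 47.9 CPM in control, 26.8 and 17.6 CPM with Sox11, and 23.2 and 28.8 CPM with Sox11 K91A, so that no library of either virus reached a control library. With Sox11 this was a log2 fold change of -1.04, the most negative of complex I (standard error 0.23, adjusted p = 0.027). *Ndufs7*, which encodes the subunit with the last cluster before ubiquinone, was at 78.5 and 103 CPM in control, 48.8 and 46.3 CPM with Sox11, and 47.8 and 52.5 CPM with Sox11 K91A. The fall on the log2 scale was -0.92 with Sox11 (standard error 0.17, adjusted p = 0.018) and reached -0.84 in the Sox11 K91A group (standard error 0.17, adjusted p = 0.030).

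Accessory subunits fell as well. *Ndufa13*, also known as GRIM-19, was at 64.7 and 77.6 CPM in control and between 39.4 and 43.2 CPM in all 4 other libraries. It fell with Sox11 by 0.81 on the log2 scale (adjusted p = 0.018) and with Sox11 K91A by 0.77 (adjusted p = 0.028), and with *Ndufs7* it made up the 2 complex I members called with Sox11 K91A. *Ndufa13* overlaps *Yjefn3* on its own strand and *Tssk6* on the other, and how RSEM was set for strand is not given in the sources used here, so reads of these genes could be mixed. The membrane arm subunits *Ndufa11*, *Ndufb10* and *Ndufb11* had log2 fold changes of -0.81, -0.78 and -0.74 with Sox11, with adjusted p of 0.020, 0.020 and 0.027. At the other end stood *Ndufs4*, an accessory subunit of the hydrophilic arm whose loss in mice gives a fatal brain disease. It was at 40.6 and 61.3 CPM in control, 46.7 and 47.4 CPM with Sox11, and 49.3 and 49.9 CPM with Sox11 K91A. Every library of both viruses lay between the 2 control libraries, and the log2 fold changes of -0.09 and -0.02 were less than their standard errors of 0.20. The groups thus overlapped for *Ndufs4* and were separate for *Ndufs7*.

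Complex II oxidizes succinate in the tricarboxylic acid cycle and has 4 subunits. *Sdhd*, a membrane anchor, was at 99.3 and 111 CPM in control, 62.7 and 52.2 CPM with Sox11, and 56.3 and 61.9 CPM with Sox11 K91A. The groups did not overlap, and its log2 fold change was -0.88 with Sox11 (standard error 0.15, adjusted p = 0.016) and, for Sox11 K91A, -0.83 (standard error 0.15, adjusted p = 0.026). *Sdhb*, the iron-sulfur subunit, fell with Sox11 by 0.57 (adjusted p = 0.040). The flavoprotein *Sdha* and the second anchor *Sdhc* were not called, with log2 fold changes of -0.40 and -0.34 with Sox11. The 2 membrane anchors thus had unequal values, -0.88 against -0.34, and a test of the difference between genes was not made.

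Complex III had the largest share of members called, 5 of 8 with Sox11 and 3 of 8 with Sox11 K91A. *Uqcrq*, a small accessory subunit, was at 151 and 178 CPM in control, 86.7 and 67.6 CPM with Sox11, and 83.4 and 98.0 CPM with Sox11 K91A. Its log2 fold change was -1.10 with Sox11 (standard error 0.18, adjusted p = 0.015) and, for Sox11 K91A, -0.86 (standard error 0.18, adjusted p = 0.034). The small subunits *Uqcr10* and *Uqcr11* had log2 fold changes of -0.99 and -0.97 with Sox11, and of -0.75 and -0.87 with Sox11 K91A, all 4 called. *Uqcrh*, the hinge protein, fell by 0.78 and the core protein gene *Uqcrc1* by 0.73 with Sox11, each with an adjusted p of 0.025. The second core protein gene, *Uqcrc2*, was at 138 and 145 CPM in control, 125 and 107 CPM with Sox11, and 118 and 123 CPM with Sox11 K91A. Its log2 fold change was -0.29 with Sox11 (adjusted p = 0.172), the least negative of complex III. In all 8 genes no library of either virus reached the control libraries. Of all genes, 30.6% were separated downward in this way with Sox11 and 30.7% with Sox11 K91A.

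Complex IV passes electrons to oxygen, and several of its nuclear subunits exist as paired isoforms. Among 13 members tested, 3 fell with Sox11. *Cox8a*, the common form of the smallest subunit, had the largest fall of all nuclear members called with Sox11. It was at 282 and 289 CPM in control, 158 and 105 CPM with Sox11, and 153 and 176 CPM with Sox11 K91A, and its log2 fold change was -1.15 with Sox11 (standard error 0.21, adjusted p = 0.018) and, for Sox11 K91A, -0.80 (standard error 0.21, adjusted p = 0.058). *Cox5b*, a zinc-binding subunit on the matrix side, was at 172 and 189 CPM in control, 110 and 77.7 CPM with Sox11, and 105 and 115 CPM with Sox11 K91A, with log2 fold changes of -0.96 (adjusted p = 0.021) and -0.71 (adjusted p = 0.059). *Cox6a1* fell by 0.70 with Sox11 (adjusted p = 0.027). The partner of *Cox5b* in the complex, *Cox5a*, was not called, with a log2 fold change of -0.20, and the same held for *Cox7a2l*, an assembly factor of supercomplexes, at -0.18. These last 2 genes were chosen after their values were seen.

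**Figure D3:**
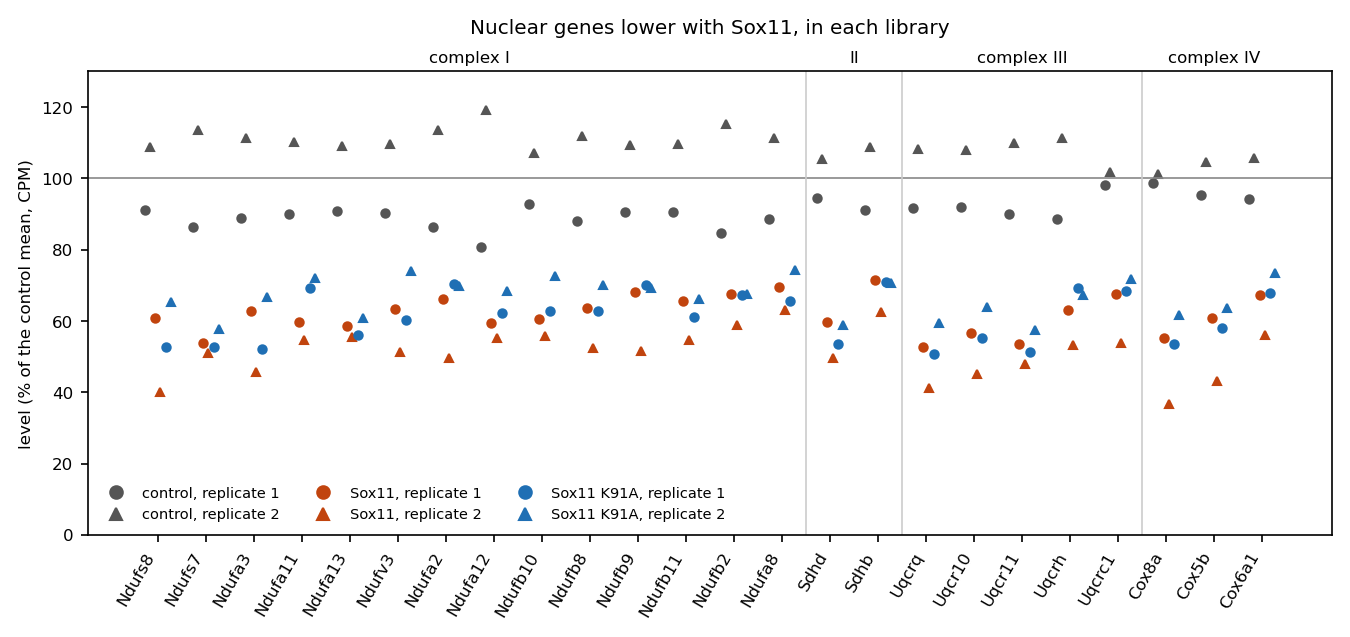
Level of the 24 nuclear members that fell with Sox11, in each library, as a percent of the control mean of the same gene (CPM), grouped by complex. Circles are replicate 1 and triangles replicate 2. All 4 libraries of both viruses lie below both control libraries for every gene shown, and control replicate 2 is above control replicate 1.

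Complex IV also has tissue-restricted isoforms. *Cox6b2*, known from testis, was the only nuclear member with a positive log2 fold change, 0.87 with Sox11 (standard error 0.38, adjusted p = 0.139) and 0.84 with Sox11 K91A (adjusted p = 0.184), neither called. It was at 9.48 and 24.1 CPM in control, 28.5 and 29.4 CPM with Sox11, and 31.5 and 25.5 CPM with Sox11 K91A, so that all 4 libraries of the viruses were above both control libraries, by little in the case of control replicate 2. Its ubiquitous partner *Cox6b1* was at 164 and 208 CPM in control and between 114 and 139 CPM in the other libraries, with a log2 fold change of -0.57 with Sox11 (adjusted p = 0.052). Per length, *Cox6b1* was at a mean of 1255 transcripts-per-million (TPM) and *Cox6b2* at 110 TPM in control. *Cox7a1*, the heart and muscle isoform, was near the limit of detection, with 43 and 37 counts in control, 12 and 7 with Sox11, and 4 and 1 with Sox11 K91A. It was called lower with Sox11 K91A (log2 fold change -3.80, standard error 0.87, adjusted p = 0.041) and not with Sox11 (-1.93, standard error 0.64, adjusted p = 0.072), and that fold rests on the 4 counts and 1 count of the Sox11 K91A libraries. *Cox7a2*, its ubiquitous partner, was at 85.7 and 146 CPM in control and 77.6 to 88.5 CPM in the others, with log2 fold changes of -0.50 and -0.39, neither called.

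The 5 members that were not tested had too few counts. *Cox6a2*, the muscle partner of *Cox6a1*, had 7 and 11 counts in control, 0 and 0 with Sox11, and 4 and 2 with Sox11 K91A. *Cox7b2* reached at most 3 counts in a library, whereas its partner *Cox7b* was at 70.9 and 104 CPM in control and had a log2 fold change of -0.70 with Sox11 (adjusted p = 0.054). *Cox8b*, *Cox8c* and *Cox6c2* were at 0 counts in all 6 libraries, which allows up to 3 counts in each, and *Cox6c2* is annotated as a processed pseudogene although its name passed the selection.

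*Sdhd* (chr9:50596357-50603812 on GRCm38, minus strand), *Uqcr11* (chr10:80402997-80406830, minus) and *Cox8a* (chr19:7215153-7217616, minus) are protein-coding genes, as is *Cox6b2* (chr7:4751792-4753094, minus). The promoters of some members that fell together are shown because binding letters of factors known for respiratory genes could be searched there. A window of 250 bases before and 50 bases after the start, from the RefSeq table on GRCm38.p6, was found for 53 of the 65 nuclear members and 51 of the 60 tested. Capitals mark matches on either strand to GCGC and TGCGC with 1 base of any kind between them (letters of the NRF-1 type), CCGGAAG (the ETS type, bound by GABP), AAGATGGCG (the YY1 type) or AACAAT (the SOX type). The lines run 5′ to 3′ on the strand of the gene, from 120 bases before the start to 30 bases after it.

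*Sdhd*, minus strand, chr9:50603820-50603969: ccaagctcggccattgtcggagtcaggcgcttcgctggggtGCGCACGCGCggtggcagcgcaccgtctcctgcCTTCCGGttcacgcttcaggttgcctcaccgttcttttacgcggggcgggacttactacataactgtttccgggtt
*Uqcr11*, minus strand, chr10:80406792-80406941: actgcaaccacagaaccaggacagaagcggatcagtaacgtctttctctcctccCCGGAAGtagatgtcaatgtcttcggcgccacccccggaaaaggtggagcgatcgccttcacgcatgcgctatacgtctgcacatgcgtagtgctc
*Cox8a*, minus strand, chr19:7217587-7217736: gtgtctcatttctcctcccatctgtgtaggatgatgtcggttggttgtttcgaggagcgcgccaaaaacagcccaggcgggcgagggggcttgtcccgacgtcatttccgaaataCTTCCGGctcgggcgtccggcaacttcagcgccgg
*Cox6b2*, minus strand, chr7:4753065-4753214: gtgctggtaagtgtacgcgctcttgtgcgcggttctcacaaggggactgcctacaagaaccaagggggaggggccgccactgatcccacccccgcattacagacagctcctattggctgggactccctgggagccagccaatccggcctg

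In the whole windows, the NRF-1 letters were present in 11 of the 51 members, or 21.6%, against 5.19% of 27025 genes in the table. The ETS letters were in 11 of 51, or 21.6%, against 9.93%, and the YY1 letters in 5 of 51, or 9.80%, against 1.64%. The SOX letters were in 6 of 51, or 11.8%, against 12.2%. Of the 21 members with a window that fell with Sox11, 5 held the NRF-1 letters, 7 the ETS letters, 1 the YY1 letters and 1 the SOX letters. Of the 30 that were not called, the numbers were 6, 4, 4 and 5. These counts describe the letters in these windows. The promoters printed were not picked by a fixed rule. *Sdhd*, *Uqcr11* and *Cox8a* each held the ETS letters, as did only 7 of the 21 fallen members with a window. *Cox6b2*, the member with the opposite sign, held none of the 4 in the stretch shown. A link between these letters and the changes was not tested.

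Among the mtDNA genes, levels per length in control ranged from 609 TPM for *mt-Nd3* to 10545 TPM for *mt-Co1*, and their median of 3362 TPM was above the median of 320 TPM for the nuclear members tested. The order in control was *mt-Co1*, *mt-Co2*, *mt-Nd1*, *mt-Atp8*, *mt-Cytb*, *mt-Co3*, *mt-Nd4*, *mt-Nd2*, *mt-Nd6*, *mt-Nd5*, *mt-Atp6*, *mt-Nd4l* and *mt-Nd3*. This order rests on how RSEM divided reads between 5 of these genes and copies on chromosome 1, described below. With the copies added, *mt-Co2* at 11757 TPM stood above *mt-Co1*, *mt-Co3* at 8418 TPM came next, *mt-Atp6* followed at 7110 TPM, *mt-Nd4l* and *mt-Nd3* were at 3604 and 2299 TPM, and *mt-Nd5* was lowest at 1870 TPM. The neighbors *mt-Nd1* and *mt-Atp8* were at 5746 ± 872 and 5731 ± 59.3 TPM (SD, n = 2) and did not differ beyond this spread, and the same was true of *mt-Cytb* at 4578 ± 1099 and *mt-Co3* at 4082 ± 779 TPM before copies were added. The near-equal TPM of *mt-Nd1* and *mt-Atp8* came from unlike CPM. The control means were 2244 CPM for *mt-Nd1*, of 957 bases, and 48.7 CPM for *mt-Atp8*, of 204 bases. The TPM and ranks of the short genes *mt-Atp8*, *mt-Nd4l* and *mt-Nd3* thus depend on how RSEM corrects for length. The nuclear member with the highest level was *Cox6a1*, at 2250 ± 107 TPM.

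**Figure D4:**
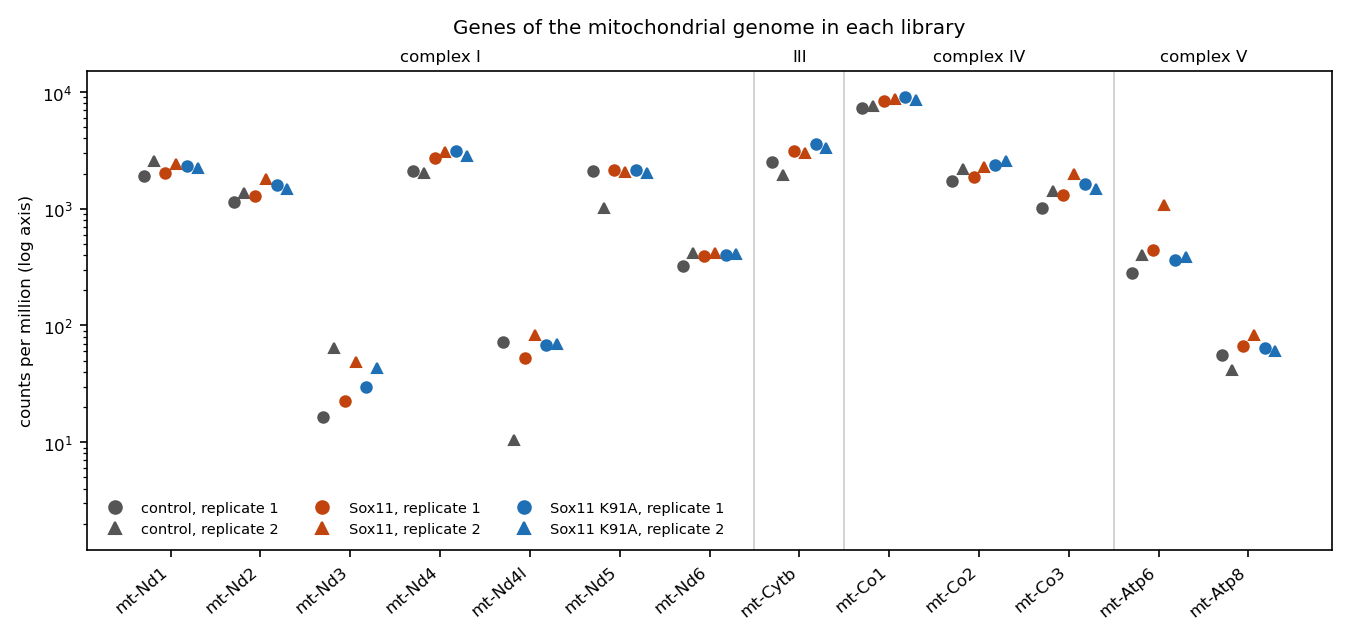
CPM of the 13 mtDNA members in each library (log axis), by complex. Circles are replicate 1 and triangles replicate 2. Control replicate 2 is the lowest library for mt-Nd4, mt-Nd4l, mt-Nd5, mt-Cytb and mt-Atp8 and the highest for mt-Nd1 and mt-Nd3, and Sox11 replicate 2 is highest for mt-Atp6.

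Complex I members on mtDNA form the proton-pumping part of the membrane arm. *mt-Nd4* was at 2110 and 2008 CPM in control, 2720 and 3066 CPM with Sox11, and 3100 and 2853 CPM with Sox11 K91A. No control library reached the others, yet the log2 fold changes of 0.49 (standard error 0.15, adjusted p = 0.060) and 0.53 (standard error 0.15, adjusted p = 0.065) did not pass. *mt-Nd1* was at 1924 and 2565 CPM in control and between 2029 and 2429 CPM in the other libraries, with log2 fold changes of 0.00 and 0.04. *mt-Nd2* was at 1153 and 1369 CPM in control, 1299 and 1794 CPM with Sox11, and 1605 and 1473 CPM with Sox11 K91A, with log2 fold changes of 0.28 and 0.29. *mt-Nd6*, the only member on the opposite strand of the mtDNA, was at 324 and 416 CPM in control and 391 to 417 CPM in the others, with log2 fold changes of 0.14 and 0.15. *mt-Nd5* had unlike control replicates, at 2120 and 1014 CPM, while the other 4 libraries held 2025 to 2167 CPM. Its log2 fold changes of 0.52 and 0.51 rest on control replicate 2, and without it they were -0.01 and -0.02. *mt-Nd4l* had the largest log2 fold changes of the mtDNA members, 1.35 and 1.41 (standard error 0.75, adjusted p = 0.232 and 0.251). It was at 72.6 and 10.5 CPM in control and 52.2 to 82.7 CPM in the others. Without control replicate 2 its values were -0.14 and -0.08. *mt-Nd3*, at 16.5 and 64.7 CPM in control, had log2 fold changes of -0.02 and 0.07.

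For complexes III and IV, *mt-Cytb*, which encodes cytochrome b, was at 2518 and 1930 CPM in control, 3111 and 3028 CPM with Sox11, and 3621 and 3326 CPM with Sox11 K91A. It had the smallest adjusted p of the mtDNA members with Sox11 K91A, 0.059, at a log2 fold change of 0.65 (standard error 0.18), and 0.48 with Sox11 (standard error 0.17, adjusted p = 0.094). The catalytic subunit gene *mt-Co1* was at 7283 and 7533 CPM in control, 8428 and 8779 CPM with Sox11, and 9119 and 8560 CPM with Sox11 K91A. The groups did not overlap, and the log2 fold changes were 0.22 and 0.25, neither called. *mt-Co2* had log2 fold changes of 0.10 and 0.35, and *mt-Co3* of 0.43 and 0.38. Altogether 5 of 13 mtDNA members were separated upward from control with Sox11 and 7 of 13 with Sox11 K91A, where 30.9% and 31.2% of all genes were.

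The ATP synthase genes *mt-Atp8* and *mt-Atp6* lie on 1 RNA and share 43 bases, and *mt-Nd4l* and *mt-Nd4* share 7. They are shown because reads within the shared stretch (capitals) fit both genes. Coordinates are on GRCm38, plus strand, with 15 bases on each side.

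*mt-Atp8* and *mt-Atp6*, chrM:7912-7984: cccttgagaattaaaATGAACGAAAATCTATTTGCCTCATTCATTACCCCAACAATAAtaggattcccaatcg
*mt-Nd4l* and *mt-Nd4*, chrM:10152-10188: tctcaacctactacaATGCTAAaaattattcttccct

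Although they share an RNA, the pair had unlike values. *mt-Atp8* was at 55.7 and 41.7 CPM in control, 66.9 and 82.5 CPM with Sox11, and 63.8 and 60.5 CPM with Sox11 K91A, with log2 fold changes of 0.63 (standard error 0.19, adjusted p = 0.055) and 0.37 (adjusted p = 0.231). *mt-Atp6* was at 279 and 400 CPM in control, 447 and 1081 CPM with Sox11, and 364 and 387 CPM with Sox11 K91A, with log2 fold changes of 1.06 (standard error 0.39, adjusted p = 0.095) and 0.17 (adjusted p = 0.807). Sox11 replicate 2 alone stood far above the rest. Per length in control, *mt-Atp6* was at 1398 TPM and *mt-Atp8* at 5731 TPM, and with its copy on chromosome 1 added *mt-Atp6* was at 7110 TPM. The limit given above for the TPM of short genes applies to *mt-Atp8*.

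The 5 mtDNA genes *mt-Atp6*, *mt-Co2*, *mt-Co3*, *mt-Nd3* and *mt-Nd4l* have copies of at least 99.7% identity on chromosome 1, between 24612407 and 24615565 on GRCm38, named *Gm10925*, *Gm28661*, *Gm28437*, *Gm28438* and *Gm10222*. RSEM divides reads that fit 2 places by estimation. The share of the pair given to *mt-Atp6* was 16.7% and 22.9% in control, 21.9% and 51.6% with Sox11, and 15.2% and 17.5% with Sox11 K91A, and RSEM's own posterior SD reached 23.2% of the *mt-Atp6* count and 25.7% of the *mt-Nd3* count. *mt-Nd3* differs from its copy over 345 aligned bases by T3C alone, counted from the first base of *mt-Nd3*, where the first letter is that of *mt-Nd3*. The base is in capitals.

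*mt-Nd3*, chrM:9459-9475: atTaacctgtacactgt
*Gm28438*: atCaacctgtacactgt

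When each copy was added to its mtDNA gene before the fit, an alternative chosen after seeing the data, *mt-Atp6* was at 1672 and 1745 CPM in control, 2038 and 2093 CPM with Sox11, and 2388 and 2217 CPM with Sox11 K91A. Its log2 fold change with Sox11 became 0.27 (adjusted p = 0.192) in place of 1.06, and with Sox11 K91A 0.43 (adjusted p = 0.088) in place of 0.17. Between Sox11 K91A and Sox11 its log2 fold change was -0.88 as deposited and 0.16 with the copy added. The replicates of control and of Sox11 were thereby closer for this gene. *mt-Nd3* had 16.5 and 64.7 CPM in control as deposited and 100 and 202 CPM with its copy, and *mt-Nd4l* 72.6 and 10.5 CPM as deposited and 232 and 78.0 CPM, so control replicate 2 still stood apart for these 2. The median over the 13 members became 0.28 with Sox11 and 0.37 with Sox11 K91A, and 0 were called by limma-voom. The other 8 mtDNA members, which have no copy of more than 99% identity over more than 90% of the gene, had medians of 0.38 and 0.33. Among them *mt-Nd4* has a fully identical copy over 63.6% of its length, *Gm28439*, which was listed at 0 counts in all 6 libraries.

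Between the viruses, 0 of 60 nuclear and 0 of 13 mtDNA members were called for Sox11 K91A against Sox11 by limma-voom, where 0 of 15747 genes were called, and 0 members passed an unadjusted p of 0.05, as 0.686% of all genes did. In this comparison DESeq2 and edgeR's quasi-likelihood test also called 0 members of either genome. The nuclear median was 0.10, with 51 of 60 members above 0 and 9 below 0, where 48.8% of all genes were below 0, and the mtDNA median was 0.04. In 20 of the 60 nuclear members both Sox11 K91A libraries were above both Sox11 libraries, and in 2 they were below, as was so for 13.3% and 13.4% of all genes. *Cox8a* had the largest value among the nuclear members, 0.35 (standard error 0.21, adjusted p = 1.000), with 158 and 105 CPM for Sox11 and 153 and 176 CPM for Sox11 K91A, which overlap. The larger number of nuclear members called with Sox11 than with Sox11 K91A is thus not a tested difference between the viruses.

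The count of nuclear members that fell depended on single libraries, and so did the values of the mtDNA members. Without control replicate 1 the mtDNA medians were 0.19 with Sox11 and 0.18 with Sox11 K91A, with 9 of 13 above 0 in each. Without control replicate 2 they were 0.31 and 0.41, with 11 above 0 in each. Without Sox11 replicate 2 the mtDNA median with Sox11 was 0.19, with 10 above 0. In 57 of 60 tested nuclear members control replicate 2 was above control replicate 1, against 50.1% of all genes, with a median difference of 0.33 on the log2 scale. Without control replicate 2, 8 fell with Sox11, where 6.39% of all genes were called lower (*Ndufa11*, *Ndufa13*, *Ndufb10*, *Ndufs7*, *Sdhd*, *Uqcr10*, *Uqcr11* and *Uqcrq*), *Cox6b2* was called higher, the median was -0.42 and 54 of 60 were below 0, while with Sox11 K91A 0 members and 0 of all 15747 genes were called and the nuclear median was -0.29. Without control replicate 1 the numbers that fell were 48 with Sox11 and 34 with Sox11 K91A, where 11.5% and 7.13% of all genes were called lower, with medians of -0.80 and -0.67, and 5 and 4 mtDNA members were called higher, against 12.2% and 8.94% of all genes, among them *mt-Nd4*, *mt-Nd4l*, *mt-Nd5* and *mt-Cytb* with both. Without Sox11 replicate 2, 0 nuclear members were called with Sox11, as were 0 of all 15747 genes, and the median was -0.53 with 59 below 0. With control replicate 2 and Sox11 replicate 2 both left out, 6 fell with Sox11, where 5.45% of all genes were called lower (*Cox5b*, *Cox8a*, *Ndufs7*, *Sdhd*, *Uqcr11* and *Uqcrq*) and *Cox6b2* was called higher, with a median of -0.31, and *mt-Atp6* was the 1 mtDNA member called higher. With Sox11 K91A 12 nuclear members then fell, where 13.9% of all genes were called lower, and *Cox6b2* was called higher, with a median of -0.29, and 6 mtDNA members were called higher, against 10.7% of all genes (*mt-Atp6*, *mt-Co2*, *mt-Co3*, *mt-Cytb*, *mt-Nd3* and *mt-Nd4*). In this setting control and Sox11 have 1 library each, which is taken to vary like the Sox11 K91A libraries. Leaving out either Sox11 K91A library gave 11 with Sox11, where 5.02% and 4.92% of all genes were called lower. With Sox11 K91A it gave 0, where 0 of all genes were called without its replicate 1 and 0.241% were called lower without its replicate 2.

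The tested nuclear members are short, with a median length of 682 bases against 2552 for all genes tested, and the mtDNA members are similar at 784. With a correction for gene length in the fit, the nuclear median was -0.36 with Sox11 and -0.32 with Sox11 K91A, and the mtDNA median was 0.61 and 0.54. The numbers of nuclear members that fell were then 22 and 9, where 11.8% and 6.24% of all genes were called lower. *Cox6b2*, *mt-Nd4* and *mt-Nd6* were called higher with Sox11, where 11.2% of all genes were. The correction moved both lists upward, and the difference of the medians, mtDNA minus nuclear, was 0.97 and 0.86.

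The sum of the RGC markers was lower with both viruses. The 12 markers summed to 13873 and 13128 CPM in control, 8024 and 4792 CPM with Sox11, and 6430 and 8534 CPM with Sox11 K91A. *Nefl* alone held 7086 and 6345 CPM of the control sums. In control the sum was higher in replicate 1, whereas 57 of 60 nuclear members were higher in replicate 2. Of the 12 markers, 6 fell with Sox11 and 3 with Sox11 K91A. Of all genes, 10.2% and 4.81% were called lower, and 9.96% and 5.81% higher. *Thy1*, which encodes CD90, was at 725 and 689 CPM in control, 259 and 46.3 CPM with Sox11, and 154 and 312 CPM with Sox11 K91A, while *Rbpms*, an RNA-binding protein gene used to count RGCs, stayed between 194 and 242 CPM in all libraries. The 11 Muller glia, astrocyte and progenitor markers summed to 238 and 303 CPM in control and 476 to 503 CPM in the other libraries, with 1 of 9 tested, *Glul* (glutamine synthetase), called higher with each virus although the medians of the 9 were -1.44 and -1.10. The 9 amacrine and horizontal cell markers summed to 78.6 to 477 CPM, with overlap between the groups, and *Slc6a9*, a glycine transporter, was the 1 that fell with each virus. Of 3 photoreceptor markers tested, 1 fell with Sox11 and 0 with Sox11 K91A. Microglia markers, at most 2.11 CPM in sum, had 0 of 2 called, and of 7 vascular and mesenchymal markers 0 were called with Sox11 and 1, *Pecam1*, was called higher with Sox11 K91A. These marker genes were named after their values were seen. The part of these cell markers in the respiratory chain result was not tested.

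Genes that work with the chain were read from lists of families. The nuclear ATP synthase list had medians of -0.62 with Sox11 and -0.53 with Sox11 K91A. Of its 18 genes 7 and 2 fell (38.9% and 11.1%, against 10.2% and 4.81% of all genes) and 0 rose. *Atp5g1*, a gene for the c ring, was at 199 and 226 CPM in control, 98.1 and 67.2 CPM with Sox11, and 86.0 and 109 CPM with Sox11 K91A, with log2 fold changes of -1.38 (adjusted p = 0.014) and -1.13 (adjusted p = 0.029). *Atp5d*, the delta subunit, had -1.30 (adjusted p = 0.012) and -1.12 (adjusted p = 0.020). Of 5 tested chain and carrier genes that the names leave out, 3 fell with Sox11 and 1 with Sox11 K91A (60.0% and 20.0%, against the same 10.2% and 4.81%). They were *Cyc1*, cytochrome c1 of complex III, with log2 fold changes of -1.05 (adjusted p = 0.017) and -0.87 (adjusted p = 0.035), and with Sox11 alone *Cox4i1* (-0.68, adjusted p = 0.042) and *Cycs*, cytochrome c (-0.67, adjusted p = 0.028). Among 44 assembly factors, 4 fell with Sox11 (9.09%) and 1 with Sox11 K91A (2.27%), shares no larger than the 10.2% and 4.81% of all genes, and *Cox18*, which inserts the mtDNA-encoded Cox2 protein into the membrane, was the 1 called with both.

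**Figure D5:**
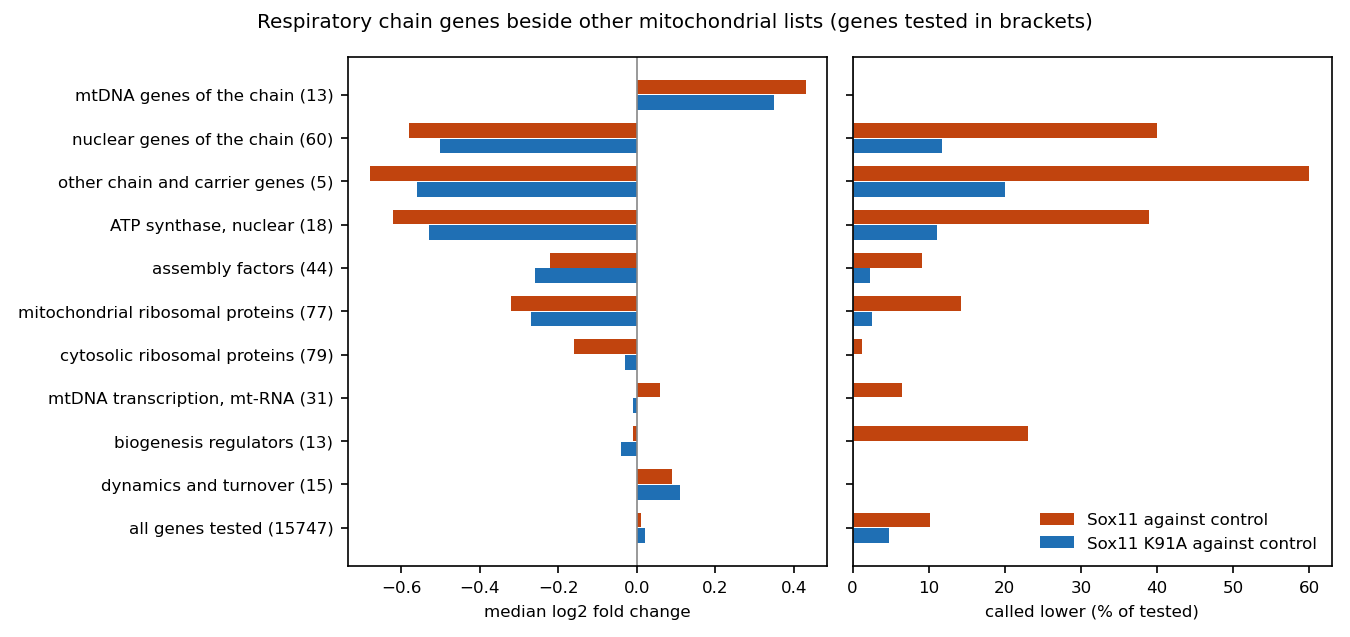
Median log2 fold change (left) and percent of tested genes called lower (right) for the respiratory chain members, the related lists and all genes tested, with Sox11 and with Sox11 K91A against control. The mtDNA members have positive medians of 0.43 and 0.35, and the nuclear members and the ATP synthase list have negative medians between -0.62 and -0.50. Both comparisons share the control libraries.

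Ribosomal protein genes were read for both compartments. Of 77 mitochondrial ribosomal protein genes 11 fell with Sox11 (14.3%, against 10.2% of all genes) and 2 with Sox11 K91A (2.60%, against 4.81%), with medians of -0.32 and -0.27, led by *Mrpl17* at -1.08 (adjusted p = 0.046) with Sox11. Of 79 cytosolic ribosomal protein genes, 1 fell with Sox11 (*Rpl41*, -0.83, adjusted p = 0.030) and 0 with Sox11 K91A, with medians of -0.16 and -0.03.

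Upstream genes were mixed. Among 13 regulators of mitochondrial biogenesis, *Ppargc1a* and *Ppargc1b*, the coactivators PGC-1alpha and PGC-1beta, and *Esrra*, their partner receptor ERRalpha, fell with Sox11, and *Nrf1* rose. The 3 that fell were 23.1% of the list, against 10.2% of all genes called lower, while 9.96% of all genes were called higher. *Ppargc1a* was at 59.4 and 35.8 CPM in control, 22.9 and 11.0 CPM with Sox11, and 17.1 and 24.7 CPM with Sox11 K91A, with log2 fold changes of -1.56 (adjusted p = 0.037) and -1.16 (adjusted p = 0.090). *Ppargc1b* was at 5.27 CPM or more in both control libraries and at most 2.09 CPM in the other libraries, with log2 fold changes of -3.07 (adjusted p = 0.036) and -2.45 (adjusted p = 0.063). *Esrra* had -0.75 (adjusted p = 0.042) and *Nrf1*, the factor whose letters were searched above, 0.72 (adjusted p = 0.042) with Sox11. With Sox11 K91A 0 of the 13 were called. Of 31 genes for mtDNA transcription, replication and RNA handling, 2 rose with Sox11, the single-stranded DNA binding gene *Ssbp1* at 0.91 (adjusted p = 0.040) and *Mterf2* at 0.97 (adjusted p = 0.036), and 2 fell, *Tbrg4* at -0.64 (adjusted p = 0.048) and *Fastk* at -0.54 (adjusted p = 0.042), while 0 were called with Sox11 K91A. These 2 and 2 genes, 6.45% each, are smaller shares than the 9.96% and 10.2% of all genes called higher and lower.

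The mtDNA ribosomal RNA genes, which share promoters with the mtDNA members, had log2 fold changes of 0.27 for *mt-Rnr1* and 0.33 for *mt-Rnr2* with Sox11, and 0.40 and 0.50 with Sox11 K91A, 0 called, and the 22 mtDNA tRNA genes of the list were not tested. Of 15 genes for mitochondrial dynamics and turnover, *Pink1*, the kinase that marks damaged mitochondria, rose with Sox11 (0.52, adjusted p = 0.043), and 0 were called with Sox11 K91A. *Pink1* was the 1 of 15 called with Sox11, where 9.96% of all genes were called higher. Between Sox11 K91A and Sox11, 0 genes of any list were called.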

How the data were processed

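RNA from 6 libraries of cultured mouse RGCs was sequenced. The authors aligned reads to mm10 with STAR and estimated gene values with RSEM; versions, annotation and strand setting are not given in the sources used here. The deposited tables hold the expected count per gene, TPM, a score that is RSEM's posterior SD of the count, and the gene length. The depth was 27521981 to 37061718 expected counts per library.

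Here the deposited expected counts were rounded, filtered with filterByExpr (15747 genes kept), scaled by TMM (factors 0.985 to 1.04) and fitted across all 3 groups with limma-voom (limma 3.58.1, edgeR 4.0.16, R 4.3.3), with Benjamini-Hochberg adjustment over all genes. A call needed an adjusted p under 0.05 and a fold above 1.2. Deposited TPM served for levels between genes, the deposited score for the uncertainty of counts. DESeq2 1.42.0, edgeR's quasi-likelihood test, other scalings, filters, weights, blocks, a length correction and left-out libraries were alternatives. Copies in the genome were found with BLAST+ 2.17.0 (at least 95% identity over 50% of the gene); matplotlib 3.10.9 drew the figures from tables written with pandas 2.3.3 (Python 3.11.15). The limma-voom fit was tested on simulated counts with known changes, and the alternatives were not. Members and lists were chosen with earlier results of these data known. All mtDNA members, and nuclear members by call and by the most extreme values in each complex, were named by a fixed rule.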

Additional observations from a re-analysis of the deposited data

How the results depend on the processing

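The number of nuclear members called with Sox11, 24 as reported, was 9 with sample quality weights, 11 when only the 2 groups compared were fitted, 14 with the length correction and replicate block together and 7 with control replicate 2 and Sox11 replicate 2 both left out, and it ranged from 0 to 48 when single libraries were left out. That with Sox11 K91A, 7 as reported, was 27 by DESeq2 and 13 with both of those libraries left out, and ranged from 0 to 34. The number of mtDNA members called with Sox11, 0 as reported, was 3 by DESeq2, 1 with all genes of at least 1 count, 2 with the length correction, 1 with the length correction and replicate block, 3 with a block that sets those 2 libraries apart, 1 without both, and 0 to 5 over single libraries left out. That with Sox11 K91A was 2 by DESeq2, 2 with all genes of at least 1 count, 1 with the same block, 6 without both libraries, and 0 to 4 over single libraries left out. The difference of the medians, 1.01 with Sox11, was 0.57 without both libraries and 0.72 to 1.16 over single libraries left out, and that with Sox11 K91A, 0.84, was 0.91 with the block for those 2 libraries, 0.70 without both, and 0.70 to 0.86 over single libraries left out. The share of all genes called also moved. With Sox11, 10.2% were called lower as reported, 2.87% with quality weights and 5.25% with only the 2 groups compared. The length correction with the replicate block gave 8.29% lower and 8.36% higher. Called higher with Sox11 were 9.96% as reported, 13.5% by DESeq2 and 5.85% with all genes of at least 1 count. The length correction gave 11.2% higher and the block for those 2 libraries 13.7%. With Sox11 K91A, DESeq2 called 10.1% lower and 9.85% higher, against 4.81% and 5.81% as reported. For Sox11 K91A, 3.44% were called higher with all genes of at least 1 count and 8.42% with the block for those 2 libraries. The cause of these shifts was not tested. The replicate block gave 20 nuclear members and 1 mtDNA member called with Sox11 and 6 and 0 with Sox11 K91A. Of all genes it called 8.74% lower and 8.27% higher with Sox11, and 4.17% and 4.74% with Sox11 K91A. Same-numbered libraries had deviations that correlated at 0.259 (control and Sox11), -0.045 (control and Sox11 K91A) and -0.282 (Sox11 and Sox11 K91A), so the numbers were not taken to pair the libraries. With the Sox11 K91A numbers exchanged in the block, chosen after seeing the data, 27 nuclear and 2 mtDNA members were called with Sox11 and 11 and 2 with Sox11 K91A. Of all genes, 13.7% were then called lower and 12.2% higher with Sox11, and 9.29% and 8.19% with Sox11 K91A. On values rounded to 2 decimals, signs turned under at least 1 alternative for 10 of 60 nuclear and 5 of 13 mtDNA members with Sox11 and for 9 and 6 with Sox11 K91A. The values follow for the 8 of these named in the report by the fixed rule. *Ndufs4* became 0.01 on both TPM scales, 0.05 with the length correction (also with the replicate block) and 0.20 without both libraries with Sox11, and 0.04, 0.05, 0.10, 0.14 (block for both libraries) and 0.29 with Sox11 K91A, and *mt-Nd3* with Sox11 became 0.04 with quality weights, 0.14 on the TPM scales, 0.32 with the length correction, 0.45 without both libraries and 0.29 with its copy, and with Sox11 K91A -0.16 by edgeR's quasi-likelihood test and DESeq2 and -0.04 with the exchanged block. Without both libraries *mt-Nd4l* became -0.47 (Sox11) and -0.08 (Sox11 K91A) and *mt-Nd5* -0.02 (Sox11 K91A), and *mt-Atp6* between the viruses became 0.16 with its copy. Over single libraries left out, the log2 fold changes with Sox11 ranged from -0.38 to 0.21 for *Ndufs4*, -0.07 to 0.25 for *mt-Co2*, -0.94 to 1.03 for *mt-Nd3*, -0.14 to 2.66 for *mt-Nd4l*, -0.01 to 1.05 for *mt-Nd5* and -0.04 to 0.31 for *mt-Nd6*, and with Sox11 K91A from -0.31 to 0.28 for *Ndufs4*, -0.09 to 0.42 for *mt-Atp6*, -0.17 to 0.24 for *mt-Nd1*, -0.87 to 1.10 for *mt-Nd3*, -0.08 to 2.71 for *mt-Nd4l*, -0.02 to 1.05 for *mt-Nd5* and -0.03 to 0.33 for *mt-Nd6*. With 2 libraries a group, changes well above 1 standard error, mostly about 0.18, could also go uncalled. *mt-Nd4* with Sox11, at 0.49 with a standard error of 0.15, was not called by limma-voom (adjusted p = 0.060).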
